A study of Mus musculus musculus x Mus musculus castaneus with 12 samples.

Results

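The 44 genes described here are known imprinted genes of the mouse that lie outside the Dlk1-Meg3, H19-Kcnq1 and Peg3 domains. They were chosen by name from the 24346 genes in each table, and all 44 were present. They fall into 19 domains, from the Prader-Willi/Angelman cluster with 7 genes to domains represented by 1 gene, such as Plagl1 and Impact. RNA-seq was done on 12 samples of embryonic stem (ES) cells from F1 hybrids of C57BL/6J (BL6) and Mus castaneus (cast) mice, in which SNPs tell the parental alleles apart. In the BC cross the mother was BL6, and in the reciprocal CB cross the mother was cast.

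Male BC wt cells (2 replicates) were compared with 3 male BC clones carrying a CRISPR/Cas9 deletion in Kdm6a, an X-linked gene for a histone H3 lysine 27 demethylase. Clones ΔE1 and ΔE3 carried exonic deletions and clone ΔP4 a promoter deletion. Male CB wt cells (2 replicates) were compared with CB clones ΔE2.5 and ΔE2.7 (exonic) and ΔP2.1 (promoter). Female BC wt cells (2 replicates) came from a separate line, without a knockout (KO) clone in these samples. Every group was undifferentiated ES cells grown with LIF and serum on a feeder layer of mouse embryonic fibroblasts. Each clone was 1 edited line, ΔE1 and ΔE3 shared an off-target deletion of Sh3kbp1, Map3k15 and Pdha1 and a common origin, and the CB wt line carried an actin-GFP transgene.

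An imprinted gene is expressed mainly or only from the allele inherited from 1 parent. The choice is set by DNA methylation laid down in the germ line at imprinting control regions, kept through early development by KRAB zinc finger proteins such as ZFP57 with TRIM28 and DNMT1, and often carried to neighbouring genes by a non-coding RNA. Many imprinted genes are imprinted only in certain tissues, such as brain or placenta, and ES cells in culture are known for gaining or losing methylation at imprinted loci.

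Kdm6a itself was at 49.8 and 51.3 TPM (a length- and depth-scaled transcript level) in male BC wt, 11.6 in ΔE1, 13.5 in ΔE3 and 0.0441 in ΔP4. It was at 51.0 and 51.7 TPM in male CB wt, 2.07 in ΔE2.5, 7.28 in ΔE2.7 and 0.0364 in ΔP2.1, so each KO clone was below its wt. These levels are of the whole gene, and the deleted exons were not looked at on their own. The libraries held 49975599 to 89070402 diploid fragments, of which 17.8 to 18.2% overlapped a SNP. The ES cell marker Pou5f1 was at 2071 to 3788 TPM in all 12 samples. Of the 8 fibroblast markers, Lum was at 0.464 TPM or below in every sample, and their summed level ranged from 14 to 134 TPM, with the highest value in ΔP2.1. Some chromosome regions departed from an even split between strains: in male BC cells chromosome 1 had a median BL6 share of 67.7 to 68.2%, and ΔE1 and ΔE3 lacked the 66.8 to 67.7% BL6 share of chromosome 8 seen in the wt cells and ΔP4. In CB, chromosome 1 was at 52.4 to 52.5% in wt, 68.4% in ΔE2.5 and 35.3% in ΔE2.7, and 17 of 239 blocks of 10 Mb in ΔP2.1 lay over 10 points from wt.

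For each gene the maternal share is the percentage of SNP fragments from the maternal allele, given where at least 20 such fragments were counted, with a Wilson 95% interval that covers counting error only. A gene was called paternal only at a share of 10% or below, paternal-biased under 30%, expressed from both alleles from 30 to 70%, maternal-biased above 70% and maternal only from 90%. A class was said to hold where a clone had the class of both wt replicates of its cross, with or without a parental effect. In total 30 of the 44 genes were above 1 TPM in every sample, and 5 were at or below 1 TPM in every sample. Airn, Slc22a2, Slc22a3, Tfpi2, Klf14, Nap1l5, Nnat, Nespas, Kcnk9 and Rasgrf1 never reached 20 SNP fragments, so their parental origin was not measured. Nnat, Slc22a2 and Kcnk9 had no SNP fragment in any sample, and for Nnat, at 13.8 to 137 TPM, this was not for want of reads.

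Mcts2 and Zrsr1 are imprinted retrogenes, intronless copies of the X-linked genes Mcts1 and Zrsr2 that sit within introns of H13 and Commd1. Their reads are separable from those of the parent gene only where the copies differ. A 90-base coding stretch of each pair is therefore shown, with differing bases in capitals, from GENCODE M21 transcripts (GRCm38). Mcts2 lies at chr2:152687361-152687450 on the plus strand, in its only coding exon, and Zrsr1 at chr11:22973393-22973482 on the plus strand.
Mcts2: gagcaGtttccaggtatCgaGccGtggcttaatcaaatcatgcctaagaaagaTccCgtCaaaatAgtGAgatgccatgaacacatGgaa
Mcts1: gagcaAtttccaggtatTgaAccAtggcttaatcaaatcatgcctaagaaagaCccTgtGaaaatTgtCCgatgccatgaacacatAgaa
Zrsr1: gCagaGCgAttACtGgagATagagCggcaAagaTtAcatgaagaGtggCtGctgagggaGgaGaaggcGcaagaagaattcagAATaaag
Zrsr2: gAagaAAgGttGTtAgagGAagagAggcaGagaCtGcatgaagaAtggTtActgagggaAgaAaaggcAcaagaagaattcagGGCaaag
The first pair differed at 11 of 90 bases and the second at 22 of 90. Over the aligned coding sequence the identity was 85.7% for Mcts2 and Mcts1, with a longest exact shared run of 29 bases, and 81.6% for Zrsr1 and Zrsr2, with a longest run of 37 bases.

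The crosses of the male wt lines are reciprocal, so the fit has a parental term and a strain term. With 1 line per cross, an allelic difference particular to a line enters both terms. Of 33 genes tested, 13 differed at least 2-fold between the maternal and paternal alleles at a false discovery rate of 0.05 (edgeR quasi-likelihood test), 2 toward the mother and 11 toward the father. Among all 11250 autosomal genes tested, percent_called was 5.24% in either direction, 4.01% maternal and 1.24% paternal. DESeq2 also called 13 of the 33, with percent_called of 4.69%. With the female BC samples added, edgeR called only Sgce (-3.05, percent_called 0.58%), while the log2 differences of Snrpn (-4.80), Mest (-4.65), Peg10 (-3.21) and Grb10 (2.44) kept their sign. The median absolute log2 difference between the alleles was 0.74 for the imprinted genes and 0.15 for all genes. Each line is represented by 2 libraries, so these p-values measure the spread between libraries of 1 line per cross.

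**Figure D1:**
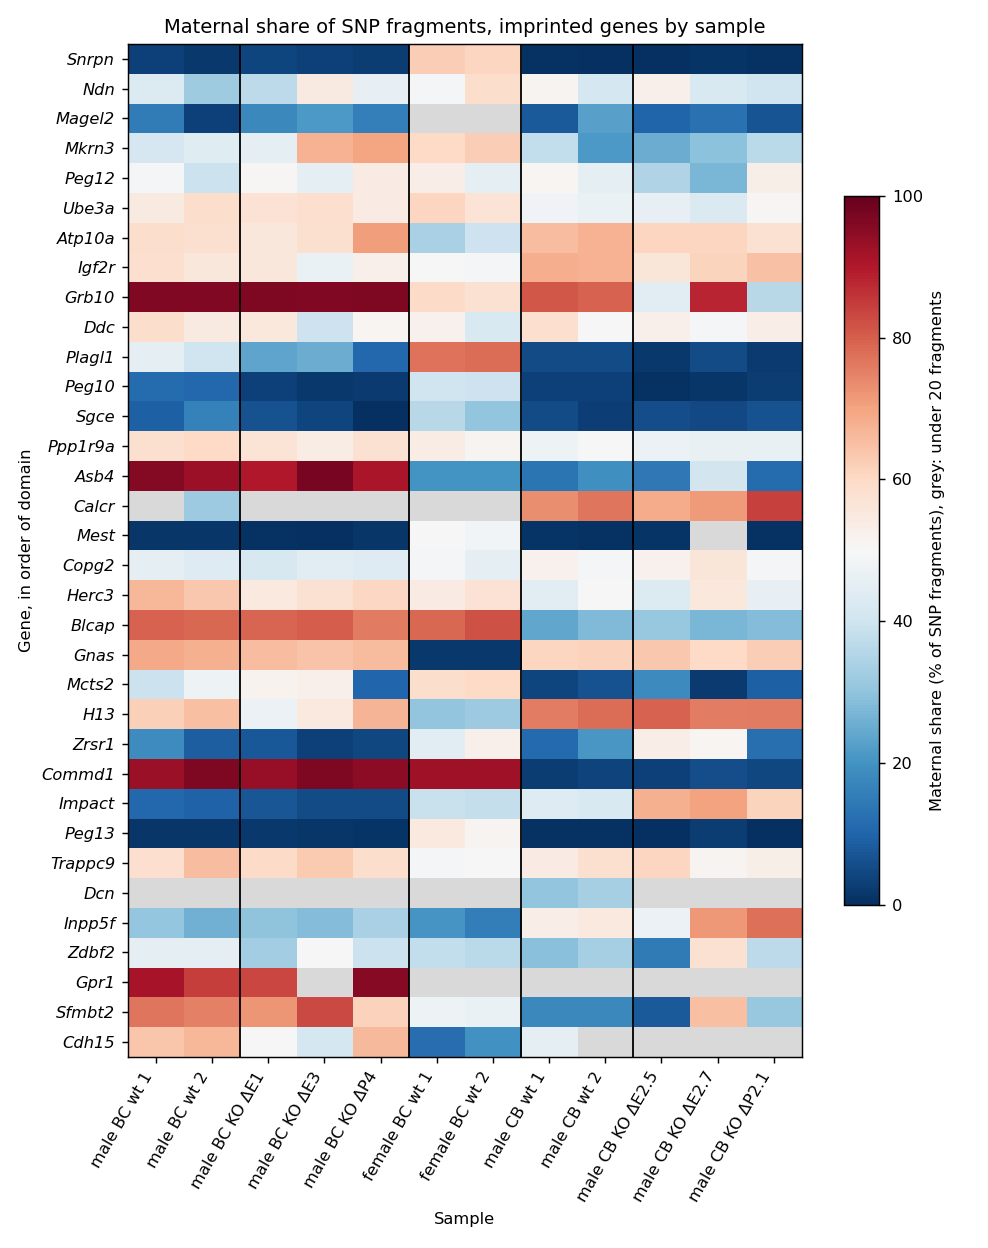
Maternal share of SNP fragments (%, colour scale from blue at 0 to red at 100) for the imprinted genes with at least 1 sample of 20 fragments (rows, by domain) in the 12 samples (columns); grey cells had under 20 fragments. Snrpn, Mest and Peg13 are dark blue in each measured male sample and near white in both female samples, whereas Commd1 turns from dark red to dark blue between the BC and CB crosses.

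The paternally expressed genes Snrpn, Mest and Peg13, came from the father alone in every male sample measured. Snrpn, which encodes a spliceosomal protein and lies at the Prader-Willi imprinting centre, had maternal shares of 3.16 and 1.89% in male BC wt, 4.0% in ΔE1, 3.41% in ΔE3 and 2.72% in ΔP4. In the CB cross its shares were 0.488 and 0.338% in wt, 0.0495% in ΔE2.5, 0.872% in ΔE2.7 and 0.635% in ΔP2.1. The KO and wt values thus were at most 4.0% in both crosses, and the parental effect in wt was a log2 difference of -6.58 (SE 0.11).

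Mest, a paternally expressed hydrolase-fold gene known for effects on growth, had maternal shares of 1.38 and 1.54% in male BC wt and 0.112 to 1.30% in the BC clones. In CB it had 0.963 and 0.741% in wt, 0.839% in ΔE2.5 and 0.435% in ΔP2.1. Mest was nearly absent from ΔE2.7, at 1.43 TPM against 174 and 170 TPM in CB wt, 143 in ΔE2.5 and 202 in ΔP2.1. That is 120-fold below the wt mean in 1 clone, with 6 SNP fragments and no measurable share. In the BC cross Mest was at 135 and 145 TPM in wt and 139, 167 and 163 TPM in ΔE1, ΔE3 and ΔP4. The antisense neighbour Copg2, a coatomer subunit that overlaps the Mest 3′ end, was at 58.4 TPM in ΔE2.7 against 66.0 and 69.1 in wt, and both of its alleles were expressed in all 12 samples. The kit did not keep strand, so reads in the overlap of the pair cannot be told apart.

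Peg13, a non-coding RNA in an intron of Trappc9, had maternal shares of 1.24 and 1.31% in male BC wt and 0.930 to 1.58% in the BC clones. In CB it had 0.704 and 0.649% in wt and 2.48% (interval 0.847 to 7.04) in ΔE2.7. There was no maternal fragment among 165 in ΔE2.5, which allows a share of up to 1.82%, and none among 142 in ΔP2.1, which allows 2.11%. Peg13 stayed at 3.50 to 5.09 TPM in all 12 samples. Its host Trappc9, known as maternally biased in brain, was expressed from both alleles in every sample, at 49.3 to 65.4% maternal.

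Counted over classes, none of the 161 comparisons of a gene in a clone with its wt line was a switch from 1 parent to the other. The class held in 138, was nearer to both alleles (relaxed) in 11 and nearer to 1 parent (tightened) in 12. Over all autosomal genes, percent_called was 94.3% for held, 2.21% for relaxed, 3.48% for tightened and 0.0247% for switched. By these rules a gene on both alleles in wt can neither relax nor switch, which covers 90 of the 161 comparisons. Of all autosomal genes, 83.3% in male BC wt and 81.4% in male CB wt were on both alleles. The counts and the all-gene shares therefore cover unlike mixes of classes. Of the 138 held classes, 82 were of genes on both alleles in wt, 31 of paternal-only and 9 of maternal-only genes. Being on both alleles does not exclude a parental effect. H13 and Mcts2 in BC and Impact in CB were in that class and had a called parental effect in male wt. A further 26 comparisons had no common wt class because the wt replicates fell on both sides of a bound, and 77 had under 20 fragments. All 6 genes in a single-parent class in male BC wt (Snrpn, Mest, Peg13, Grb10, Asb4 and Commd1) held it in all 3 BC clones. Of these, Asb4 and Commd1 had no called parental effect and followed the BL6 allele in the male wt lines. Their held classes, also that of Commd1 in CB, are therefore not counted here as held imprints. Of the 8 single-parent genes in male CB wt, only Mcts2 in ΔE2.5 left its class, with Mest in ΔE2.7 not measurable. Per clone, 0 or 1 genes relaxed in BC, whereas 5 relaxed in ΔE2.5, 3 in ΔE2.7 and 2 in ΔP2.1. The relaxed classes included those of Asb4, Blcap, Calcr and Sfmbt2, genes without a called parental effect. The share of all genes that relaxed was 1.58 to 2.41% in the BC clones, 1.36% in ΔE2.5, 1.44% in ΔE2.7 and 4.11% in ΔP2.1.

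**Figure D2:**
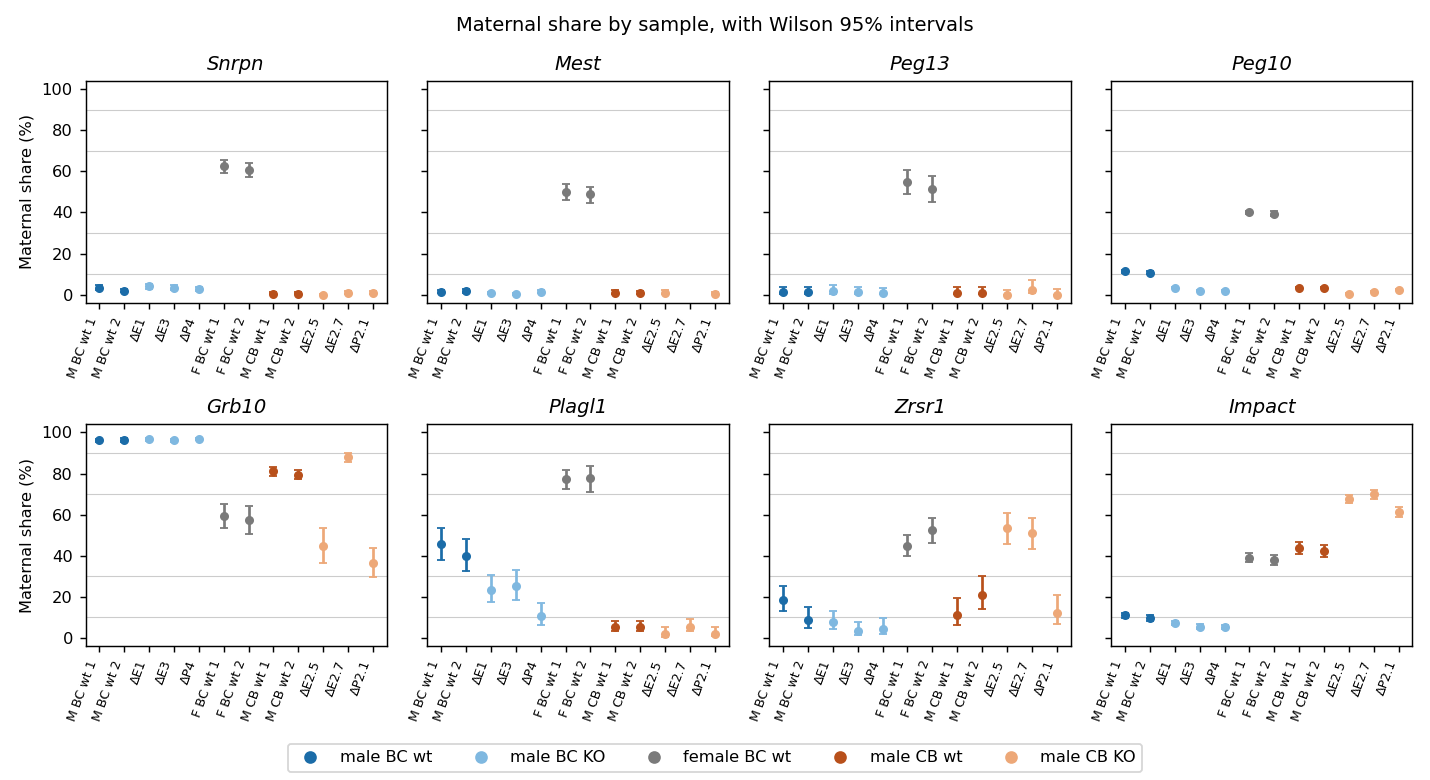
Maternal share (%, y axis) of 8 imprinted genes in the 12 samples (x axis), with Wilson 95% intervals as bars; grey lines mark the class bounds at 10, 30, 70 and 90%, and colours mark the 5 groups. Grb10 is at 44.7% in ΔE2.5 and 36.2% in ΔP2.1, Zrsr1 is at 53.3% in ΔE2.5 and 50.9% in ΔE2.7, and both female samples sit away from the male BC wt samples in all 8 panels.

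Grb10, a maternally expressed adaptor protein that restrains insulin and growth factor signalling, was the strongest maternal gene of the set (log2 maternal over paternal 3.34, SE 0.06, in male wt). Its maternal share was 96.3 and 96.4% in male BC wt, 96.7% in ΔE1, 96.1% in ΔE3 and 96.8% in ΔP4. In CB it was 81.0 and 79.5% in wt, 88.0% in ΔE2.7, 44.7% (36.2 to 53.5) in ΔE2.5 and 36.2% (29.4 to 43.6) in ΔP2.1. The intervals of ΔE2.5 and ΔP2.1 lay below those of every other male sample. The level was low in the same clones. Grb10 was at 211 and 210 TPM in CB wt, 142 in ΔE2.7, 19.6 in ΔE2.5 and 27.3 in ΔP2.1, which is 10.7-fold and 7.72-fold below the wt mean.

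Split by allele, the maternal Grb10 level was 171 and 167 TPM in CB wt, 125 in ΔE2.7, 8.78 in ΔE2.5 and 9.89 in ΔP2.1. The paternal level was 40.1 and 43.1 TPM in wt, 17.0 in ΔE2.7, 10.9 in ΔE2.5 and 17.4 in ΔP2.1. Both alleles were therefore lower in the clones, the maternal one by more in ΔE2.5 and ΔP2.1 and the paternal one by more in ΔE2.7. In BC the level was 185 and 171 TPM in wt and higher in the clones, at 200 in ΔE1, 355 in ΔE3 and 291 in ΔP4. Neither the level in CB (log2 -1.66, SE 0.85, edgeR adjusted p = 0.332) nor the allelic balance in CB (-1.41, SE 1.12, adjusted p = 1) passed the test over the 3 clones. Ddc, the neighbouring dopa decarboxylase gene, was expressed from both alleles throughout (39.5 to 58.6% maternal) and was at 20.4 and 18.7 TPM in CB wt against 32.8, 32.4 and 28.4 TPM in the CB clones.

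**Figure D3:**
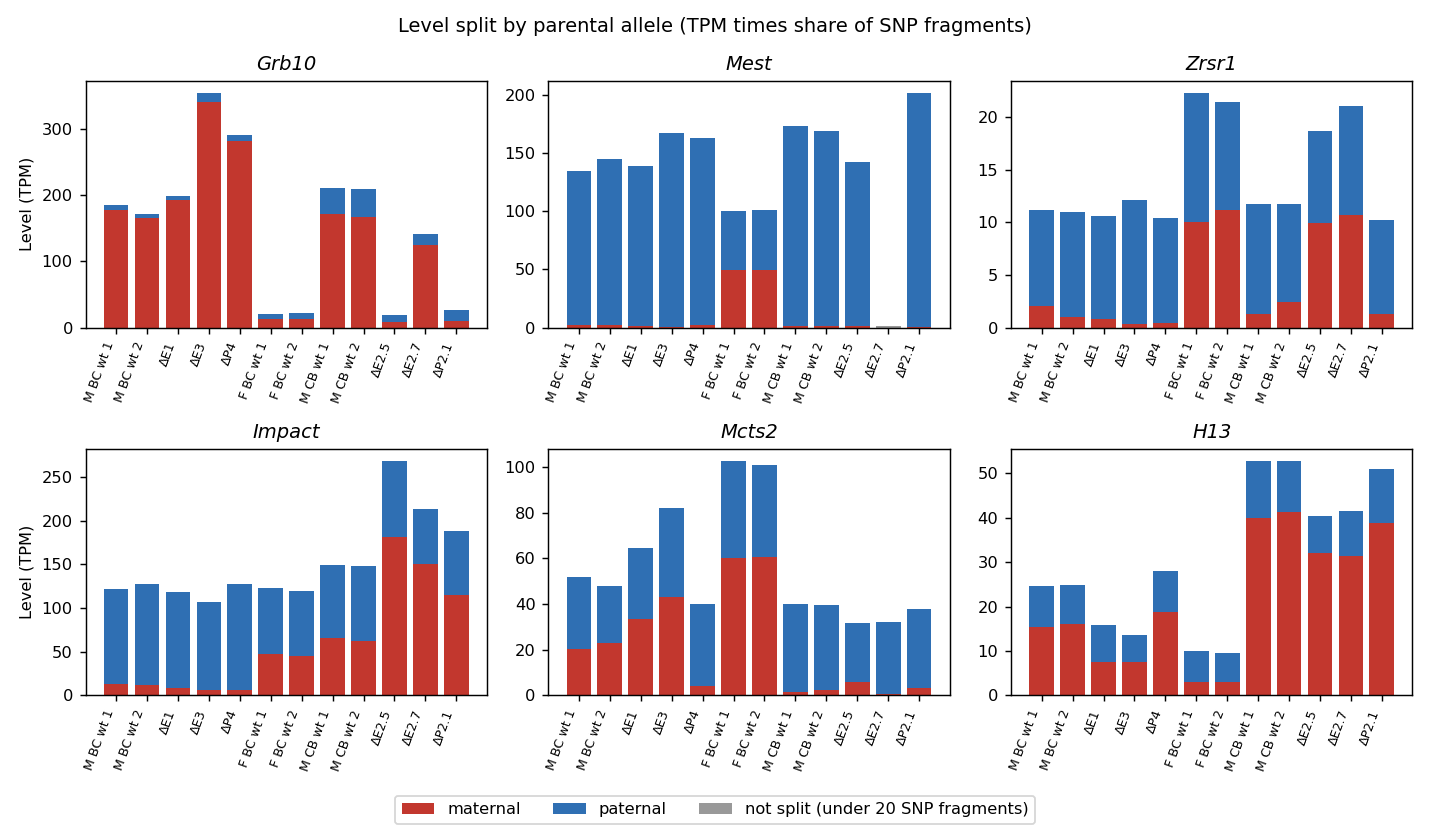
Level (TPM, y axis) of 6 imprinted genes in the 12 samples (x axis), each bar split into the maternal (red) and paternal (blue) part by the share of SNP fragments; a grey bar had under 20 SNP fragments. The red part of Grb10 is small in ΔE2.5 and ΔP2.1, Mest is nearly absent from ΔE2.7, and the red part of Zrsr1 is 9.95 and 10.7 TPM in ΔE2.5 and ΔE2.7, against 1.33 and 2.44 TPM in the CB wt samples.

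Zrsr1, a retrogene for a splicing factor subunit of the U2AF family, is known as paternally expressed. Its maternal share was 18.4 and 8.73% in male BC wt, 7.64% in ΔE1, 3.15% in ΔE3 and 4.39% in ΔP4. In CB it was 11.3 and 20.9% in wt and 12.2% in ΔP2.1, but 53.3% (45.7 to 60.8) in ΔE2.5 and 50.9% (43.3 to 58.4) in ΔE2.7. The 2 exonic CB clones thus expressed both alleles, as did the female samples at 44.9 and 52.4%.

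The Zrsr1 level was 11.7 TPM in each CB wt replicate, 10.2 in ΔP2.1, 18.7 in ΔE2.5 and 21.0 in ΔE2.7. Its maternal part was 1.33 and 2.44 TPM in CB wt, 9.95 in ΔE2.5 and 10.7 in ΔE2.7, while its paternal part was 10.4 and 9.25 TPM in wt and 8.71 and 10.3 TPM in these clones. The parent gene Zrsr2, whose coding sequence is shown above, is X-linked and so maternal in males, and was at 36.6 and 36.3 TPM in CB wt, 38.6 in ΔE2.5 and 36.5 in ΔE2.7. Other genes within 3 Mb of Zrsr1 had a median BL6 share of 50.3 and 50.8% in these clones against 50.5 and 52.5% in wt. The host gene Commd1 kept its own pattern, with 3.22 and 5.84% maternal in ΔE2.5 and ΔE2.7 against 2.61 and 3.90% in wt.

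Impact, the only imprinted gene of the set on chromosome 18, inhibits the translation kinase GCN2 and is known as paternally expressed. Its maternal share in BC was 10.9 and 9.57% in wt, 7.07% in ΔE1, 5.42% in ΔE3 and 5.21% in ΔP4, lower in all 3 clones. In CB it was 43.7 and 42.2% in wt, 67.7% in ΔE2.5, 70% in ΔE2.7 and 61.1% in ΔP2.1, higher in all 3 clones. The neighbourhood must be read beside these values. Other genes within 3 Mb had a median BL6 share of 51.6 to 52.8% in all male BC samples, but of 21.5 and 20.9% in CB wt, 19.1% in ΔE2.5 and 22.0% in ΔE2.7, and of 49.2% in ΔP2.1.

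In CB wt, ΔE2.5 and ΔE2.7 most SNP fragments of the region thus carried cast alleles, while Impact in wt was split almost evenly. The female BC samples, where cast is the paternal strain, had a median BL6 share of 21.2 and 21.7% there. Parent is read from strain by the cross, and whether this region held 1 allele of each strain was not tested. In ΔP2.1, where the region was even, Impact was still 61.1% (58.7 to 63.5) maternal. The Impact level was 149 TPM in each CB wt replicate, 269 in ΔE2.5, 214 in ΔE2.7 and 189 in ΔP2.1. Its maternal part was 65.3 and 62.8 TPM in wt and 182, 150 and 115 TPM in these clones, and its paternal part was 84.2 and 86.0 TPM in wt and 86.9, 64.1 and 73.5 TPM in the clones. The part of the regional share in the allelic values was not tested.

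Mcts2, a retrogene for a translation re-initiation factor, is known as paternally expressed, and its transcription is known to go with early polyadenylation of the host H13 on the same allele. Its maternal share in BC was 39.4 and 47.4% in wt, 51.9% in ΔE1 and 52.5% in ΔE3, but 10.3% (6.02 to 17.2) in ΔP4. In CB it was 4.11 and 6.33% in wt, 2.04% in ΔE2.7, 9.09% in ΔP2.1 and 18.0% (9.77 to 30.8) in ΔE2.5. ΔP4 therefore stood apart from the other BC samples, whereas the ΔE2.5 interval overlapped those of both CB wt replicates.

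H13, a signal peptide peptidase, ran opposite to Mcts2 in the BC cross. H13 was at 24.6 and 24.9 TPM in BC wt, 28.1 in ΔP4, 15.8 in ΔE1 and 13.5 in ΔE3, where Mcts2 was at 51.7 and 48.0, 40, 64.5 and 81.9 TPM. The maternal H13 level was 15.3 and 16.1 TPM in wt, 18.8 in ΔP4, 7.44 in ΔE1 and 7.42 in ΔE3. Against wt, ΔE1 and ΔE3 thus had more maternal Mcts2 and less maternal H13, and ΔP4 the reverse. This order did not hold between the 2 wt replicates. The female samples had the most maternal Mcts2 and the least maternal H13, with 60.4 and 60.5 TPM of maternal Mcts2 and 3.0 and 3.05 TPM of maternal H13. The order did not hold within CB, where maternal Mcts2 was 1.64 and 2.52 TPM in wt, 5.74 in ΔE2.5, 0.653 in ΔE2.7 and 3.44 in ΔP2.1. Maternal H13 there was 39.9 and 41.2 TPM in wt, 32 in ΔE2.5, 31.4 in ΔE2.7 and 38.7 in ΔP2.1. The order over samples is a description without a test, since replicates and clones share a line. Mcts1 had no SNP fragments in any sample, so the SNP fragments of Mcts2 could not be compared with those of its parent gene.

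Peg10 and Sgce, a retrotransposon-derived gene needed in the placenta and epsilon-sarcoglycan, share a promoter region on chromosome 6 and are known as paternally expressed. The maternal share of Peg10 was 11.4 and 10.7% in male BC wt, 3.34% in ΔE1, 1.88% in ΔE3 and 2.01% in ΔP4. In CB it was 3.45 and 3.31% in wt, 0.431% in ΔE2.5, 1.38% in ΔE2.7 and 2.43% in ΔP2.1. The share was thus lower in all 6 clones than in both wt replicates of their cross, and it rested on 5929 to 17561 SNP fragments a sample. DESeq2 called this difference in BC (log2 -2.32, adjusted p = 1.05e-09) and over both crosses (adjusted p = 0.012), but the edgeR adjusted p was 0.0905 in BC, where the log2 difference was -2.27 (SE 0.24), and 1 over both crosses.

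Sgce shares were 9.09 and 16.3% in BC wt, 6.35% in ΔE1 and 4.11% in ΔE3, with no maternal fragment among 108 in ΔP4, which allows a share of up to 2.78%. In CB they were 5.19 and 2.88% in wt and 4.69 to 6.25% in the clones. Both crosses thus kept Sgce largely paternal. The other genes of this domain were Ppp1r9a, which encodes neurabin and was expressed from both alleles (46.1 to 59.9% maternal), and Asb4, an ankyrin repeat protein. Asb4 was 90 to 97.4% maternal in male BC samples and 11.4 to 40.8% maternal in male CB samples, so in males it followed the BL6 allele in both crosses. Calcr and Tfpi2, a calcitonin receptor and a protease inhibitor, were at 3.52 TPM or below in every sample.

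Plagl1, a zinc finger regulator of other imprinted genes, differed between the crosses. Its maternal share was 45.5 and 40% in male BC wt against 5.30 and 5.26% in CB wt. In the BC clones it was 23.5% (17.6 to 30.5) in ΔE1, 25.0% (18.6 to 32.8) in ΔE3 and 10.6% (6.42 to 17.0) in ΔP4, each below both wt replicates, while the CB clones had 1.80 to 5.37%. The BC clones were thus more paternal, although edgeR gave an adjusted p of 0.8 (log2 -1.54, SE 0.39) and DESeq2 1. The maternal Plagl1 level was 1.75 and 1.34 TPM in BC wt and 0.879, 0.919 and 0.375 TPM in the clones.

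In the Prader-Willi/Angelman cluster Magel2, a ubiquitin ligase adaptor, was the only other gene with a called parental effect (log2 -3.01, SE 0.28). Its shares of 3.33 to 22.9% in the 10 male samples rested on 35 to 79 fragments, and the wt replicates fell into different classes in both crosses. Ndn, Mkrn3 and Peg12, which are known as paternally expressed, were in no sample in a single-parent class. Ndn was 32.1 to 58.6% maternal and Peg12 27.3 to 54.2% over the 12 samples, with Peg12 lowest in ΔE2.7. Mkrn3 was 41.7 and 43.9% maternal in BC wt and 45.3, 67.2 and 69.8% in ΔE1, ΔE3 and ΔP4. In CB it was 37.8 and 21.4% maternal in wt and 25, 29.6 and 36.7% in ΔE2.5, ΔE2.7 and ΔP2.1, so its larger part came from the father there. Ube3a, the ubiquitin ligase imprinted in neurons, and the lipid flippase gene Atp10a were expressed from both alleles in nearly all samples, with the exception of Atp10a in ΔP4 at 71.0%.

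A strain difference was also measured at genes known as imprinted, with or without a parental effect. Of the 33 genes, 10 differed by strain at least 2-fold in the male wt lines. Over all genes percent_called was 17.6%, with 7.93% higher from BL6 and 9.69% from cast. With 1 line per cross, this strain term also takes in differences between the lines. Commd1, a copper metabolism and NF-kB regulator, had the largest BL6 excess (log2 4.31, SE 0.11), with maternal shares of 93.0 and 96.8% in BC wt and 2.61 and 3.90% in CB wt. Asb4 (2.95), Sfmbt2 (1.66), Mcts2 (1.60), Plagl1 (1.59), Blcap (1.44) and Grb10 (1.08) were also higher from BL6, and Calcr (-1.66), Impact (-1.64) and Inpp5f (-1.07) from cast, all as log2 differences. Grb10, Plagl1, Mcts2 and Impact also had a called parental effect (log2 3.34, -2.32, -2.29 and -1.81), larger in size than the strain one, whereas Commd1, Asb4, Sfmbt2, Blcap, Calcr and Inpp5f had none. Both the strain and the parental value of Impact take in the cast excess of its neighbourhood in CB wt given above, whose part was not tested. Blcap, an apoptosis-linked gene that hosts Nnat, was 75.9 to 81.7% maternal in all 7 BC samples and 23.9 to 31.1% in all 5 CB samples.

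**Figure D4:**
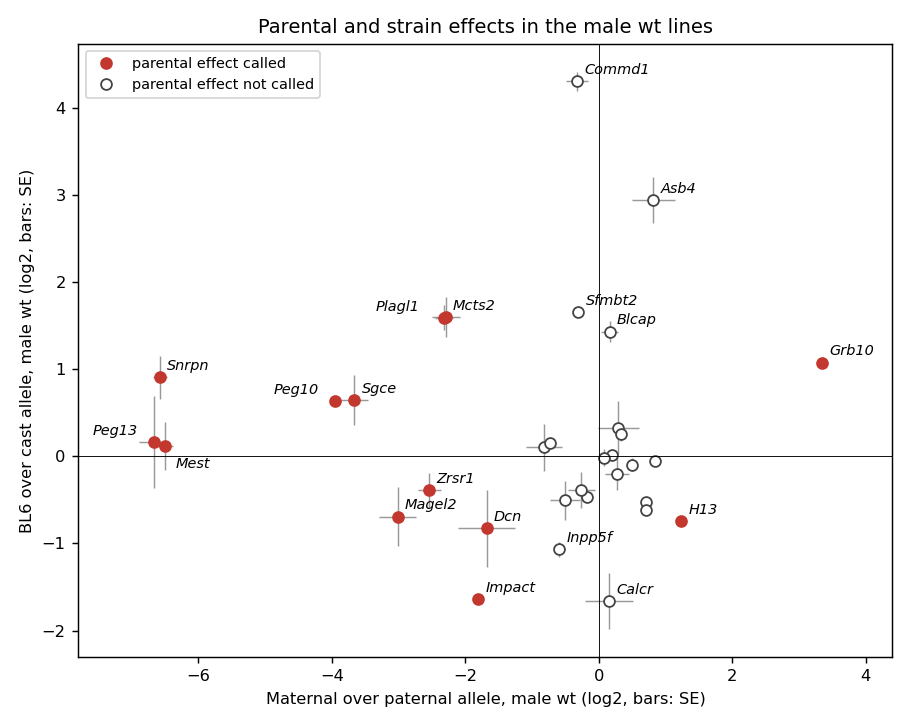
Log2 difference between the maternal and paternal alleles (x axis) against that between the BL6 and cast alleles (y axis) for 33 imprinted genes in the 4 male wt libraries, with standard errors as bars; filled points passed the test for a parental effect. Snrpn, Mest and Peg13 lie at the far left, Grb10 at the far right, and Commd1 at the top with a strain effect only. The strain difference was small for Mest (0.12) and Peg13 (0.17) and larger for Snrpn (0.91, SE 0.25), where it stayed under 2-fold.

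Sfmbt2, a Polycomb group gene known as paternally expressed in early embryos and placenta, also followed BL6 in the male wt lines. It was at 76.8 and 75.0% maternal in male BC wt and 17.8% in each CB wt replicate. The female BC samples had both alleles, at 46.7 to 47.6% maternal. ΔE2.7 reached 65.1% (62.7 to 67.4) maternal and ΔP2.1 31.1%, whereas ΔE2.5 had 7.99%. The CB clones rested on 1583 to 2673 fragments each. The Sfmbt2 neighbourhood had a median BL6 share of 52.4 to 55.3% in all CB samples. The BC clones ranged from 61.6% in ΔP4 to 83.2% in ΔE3, on both sides of wt.

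Inpp5f, a phosphoinositide phosphatase with 1 imprinted isoform in brain, had 53.3 and 54.7% maternal in CB wt, 47.0% in ΔE2.5, 71.8% (66.9 to 76.2) in ΔE2.7 and 77.6% (72.5 to 82.0) in ΔP2.1. Its neighbourhood of 80 genes stayed at a median BL6 share of 52.5 to 53.3% in these samples. Zdbf2, paternally expressed from an early embryonic imprint, was 29.1 and 33.5% maternal in CB wt, 14.7% in ΔE2.5, 57.8% in ΔE2.7 and 36.9% in ΔP2.1. The order of the CB samples was that of the local strain balance, since the median BL6 (paternal) share of its neighbours was 54.7 and 54.3% in wt, 68.7% in ΔE2.5, 35.6% in ΔE2.7 and 52.2% in ΔP2.1. The part of this regional shift in the Zdbf2 values was not tested. In BC, Zdbf2 was 45.1 to 45.3% maternal in male wt and 32.7 to 49.8% in the clones. Gpr1, the neighbour of Zdbf2, reached 20 fragments only in 4 male BC samples, at 83.3 to 95.7% maternal. Other genes near this pair had a median BL6 (maternal) share of 68 to 70.6% in the male BC samples. The part of this regional excess in the BC values of both genes was not tested.

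Igf2r, the maternally expressed receptor that clears IGF2, was not monoallelic in these ES cells. It was 58.3 and 55.8% maternal in BC wt, 46.8 to 55.5% in the BC clones, 68.2 and 67.5% in CB wt and 55.9 to 64.7% in the CB clones. Its silencing antisense RNA Airn was at 1.60 TPM or below in all samples. Gnas, which encodes the stimulatory G protein alpha subunit among several overlapping transcripts, was 59.8 to 69.0% maternal in all 10 male samples, and the KO clones overlapped wt in CB but lay slightly below it in BC (64.1 to 65.9% against 69.0 and 67.6%). Herc3, host of the retrogene Nap1l5, was 43.0 to 66.6% maternal. Nap1l5 had the same low level in both clones of common origin, 0.536 TPM in ΔE1 and 0.546 in ΔE3, against 2.41 and 2.66 in BC wt and 2.45 in ΔP4.

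Nnat, a proteolipid encoded within the Blcap intron, had no SNP fragments. It was at 112 and 106 TPM in CB wt, 44.8 in ΔE2.5, 52.8 in ΔE2.7 and 137 in ΔP2.1, and at 14.3 to 36.8 TPM in male BC samples. The 2 exonic CB clones were thus low and the promoter clone was not. Cdh15, a muscle cadherin at the end of chromosome 8, was 64.0 and 66.7% maternal in BC wt and 66.2% in ΔP4 but 50 and 41.4% in ΔE1 and ΔE3, the clones without the BL6 excess of that chromosome. Dcn, the matrix proteoglycan decorin, was at 4.77 and 4.29 TPM in CB wt, 1.20 in ΔE2.5, 0.913 in ΔE2.7 and 3.26 in ΔP2.1. In the same samples the fibroblast marker Col1a1 was at 56.3, 52.1, 7.54, 19.9 and 102 TPM. Another marker of that list, Thy1, was at 14.4, 13, 16, 14 and 10.7 TPM. Feeder cells had been depleted by attachment to gelatin and a further split before use, and the part of any that remained was not tested. Dcn had a called paternal excess in wt (log2 -1.68, SE 0.43), which rested on 33 fragments in each CB wt replicate and on 8 and 10 in BC wt.

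Tested across the clones of a cross, no imprinted gene passed in level by edgeR, while DESeq2 called 3 genes in CB. By edgeR 0 of 36 genes were called in BC, 0 of 38 in CB and 0 of 39 over both crosses, with percent_called of 0.029%, 0% and 0% over all genes. At an unadjusted p under 0.05 there were 4, 10 and 2 of them, where the same share of all genes was 11%, 20.5% and 10.1%. DESeq2 called 0 in BC, 3 in CB and 0 over both, with percent_called of 1.88%, 3.63% and 0.574%. The 3 were Ddc (log2 0.75, adjusted p = 2.25e-05) and Impact (0.66, adjusted p = 0.00441), both higher in the clones, and Sgce (-0.89, adjusted p = 0.000432), lower at 9.10, 10.5 and 12.4 TPM against 20.9 and 20.7 in wt. The edgeR adjusted p-values for these were 0.126, 0.157 and 0.13.

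The count in CB turned on 1 clone: without ΔP2.1, edgeR called 9 imprinted genes and 6.76% of all genes (percent_called), namely Ddc, Impact, Magel2 and Zrsr1 higher and Dcn, Nnat, Peg10, Sfmbt2 and Sgce lower. Markers of other cell types followed this split only in part. The summed level of 8 fibroblast markers was 88.2 and 82.2 TPM in CB wt, 28 in ΔE2.5, 43.2 in ΔE2.7 and 134 in ΔP2.1. That of 6 trophoblast markers, led by Krt18, was 1717 and 1705 TPM in wt and 510, 997 and 1214 TPM in the clones. The primitive endoderm sum was 53.6 and 52.7 TPM in wt and 35.9, 40.2 and 32.4 TPM in these clones. For neural progenitor markers the sum was 101 and 98.9 TPM in wt and 88.1, 38.6 and 100 TPM in the clones. Single markers also departed from their sums, such as Thy1 at 16, 14 and 10.7 TPM and Cdx2 at 4.81, 19.8 and 4.19 TPM in the clones. The part of other cells in these levels was not tested, and fewer cells of a type and less RNA per cell cannot be told apart in bulk samples. Of 39 genes above 1 TPM in a male sample, the CB clones lay below both wt replicates in 18 and above them in 4, against percent_called of 31.6% and 14.6% over all genes. In BC 9 lay above and 6 below, against 20.7% and 11%. Dcn and Nespas lay below in both crosses (2.7%), no gene lay above in both (2.58%), and 7 went opposite ways (9.22%). The medians of the log2 changes were -0.01 in BC and -0.15 in CB, against 0.01 in each cross for all genes. The difference of the level effect between the crosses was called in 0 of 39 genes by edgeR (percent_called 0.0629%) and in 5 by DESeq2 (3.87%), with 11 at an unadjusted p under 0.05 against 16.8% of all genes. For the allelic effect it was called in 0 of 32 (0.00885%), with 2 at an unadjusted p under 0.05 against 3.67% of all genes.

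For the balance between the parental alleles, edgeR called 0 of 32 genes in BC, 0 of 31 in CB and 0 of 32 over both crosses, with percent_called of 0.0174%, 0% and 0.00885% over all genes. The counts at an unadjusted p under 0.05 were 6, 3 and 3, against 5.36%, 2.49% and 3.71% of all genes. DESeq2 called Peg10 in BC and over both crosses, as given above, and Impact in CB (log2 1.39, adjusted p = 0.00655), with percent_called of 0.0348%, 0.0265% and 0.0184%. Without ΔP4, edgeR called Peg10, Plagl1, Impact and H13 in BC, all lower on the maternal side, with percent_called of 4.52%. The exonic clones left in that fit share 1 origin. Without ΔE1 it called Peg10, with percent_called of 0.0174%. Of 29 genes measured in all 10 male samples, 9 had a lower maternal share in every BC clone than in wt, against percent_called of 11.6%, and 2 a higher one, against 10.5%. In CB 4 were lower and 1 was higher, against 9.87% and 11.1%. Igf2r, Peg10 and Ppp1r9a were lower in both crosses, against percent_called of 1.04%, no gene was higher in both (1.05%), and Impact was lower in BC and higher in CB (2.59%).

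The female BC line differed from the male BC line at most of these genes. Its maternal shares were 62.4 and 60.6% for Snrpn, 50 and 48.8% for Mest, 54.9 and 51.5% for Peg13, 40 and 39.5% for Peg10 and 59.4 and 57.5% for Grb10. Snrpn, Mest and Peg13, paternal only in both male wt lines, and Grb10, maternal only or maternal-biased there, thus came from both alleles in the female samples. Plagl1, on both alleles in male BC wt, was 77.3 and 78.0% maternal in the female.

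Of 31 genes tested, 23 differed in allelic balance between the female and male wt BC samples, 16 more maternal and 7 less, by edgeR, and 20 by DESeq2. The background was high, with percent_called of 42.2% in all (21.7% more maternal and 20.5% less) and 33.6% by DESeq2, and with 61 of 239 blocks of 10 Mb shifted by over 10 points in BL6 share from male BC wt. The largest shifts were those of Peg13 (log2 6.96, SE 0.30), Snrpn (6.61, SE 0.16) and Mest (6.61, SE 0.18). The median absolute log2 shift was 1.46 for the imprinted genes and 0.582 for all genes. Gnas shifted as far in the opposite direction (-6.23, SE 0.15), to 1.84 and 1.94% maternal in the female from 69.0 and 67.6% in the male. Among the genes within 3 Mb of Gnas, some chosen after their values were seen, Atp5e had 15.2 and 11.4% and Nelfcd 29.4 and 30.7% BL6 in the female, while Ctsz between them had 52.3 and 48.0% and Stx16 48.0 and 46.8%.

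In level, 19 of 36 genes differed between female and male BC wt, 8 higher and 11 lower in the female, by both tools, against percent_called of 44.5% (24.5% higher and 19.9% lower) by edgeR and 43.4% by DESeq2. Grb10 was at 20.7 and 21.6 TPM in the female against 185 and 171 in the male (8.76-fold lower, adjusted p = 3.05e-10). Magel2 was at 0.563 and 0.424 TPM against 5.94 and 5.82, and Atp10a at 6.08 and 6.32 against 29.7 and 29.1. Higher in the female were Mkrn3 (17.2 and 18.3 against 6.66 and 6.69 TPM), Mcts2 (103 and 101 against 51.7 and 48.0) and Zrsr1 (22.3 and 21.5 against 11.1 and 11). Zrsr1, biallelic in the female but mostly paternal in the male, thus had more RNA in the female (log2 0.93), while Mest, also biallelic in the female, was lower (99.9 and 101 against 135 and 145 TPM) and Peg13 did not differ beyond its spread (log2 0.05, SE 0.09). Sex and line cannot be told apart, since each sex is 1 BC line.

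Of 22 genes that lay down, read or maintain imprints (from Dnmt1, Uhrf1, Zfp57 and Trim28 to Tet1 and Ctcf), 3 were higher and 6 lower in the female, against the same percent_called of 44.5%. Zfp57, the zinc finger that protects methylated imprinting control regions, was higher (log2 1.17, SE 0.07), as were Tet2 (1.32) and Tet3 (0.80), while Dnmt3b (-1.80), Dnmt3a (-1.19), Ctcf (-0.94), Setdb1 (-0.74), Smchd1 (-0.62) and Ehmt1 (-0.59) were lower. Between KO and wt, edgeR called none of the 22 in BC, CB or both crosses. At an unadjusted p under 0.05 there were 4, 3 and 2 of them, against 11%, 20.5% and 10.1% of all genes. DESeq2 called Dnmt3a (-1.04, adjusted p = 7.85e-09) and Dnmt3b (-0.99, adjusted p = 0.017) lower in BC, against percent_called of 1.88%.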

How the data were processed

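Libraries of mRNA were made with an unstranded Illumina kit, so sense and antisense reads cannot be told apart. Reads were mapped to mm10 with Bowtie2 2.2.5 per the labels, and the authors deposited estimated counts per gene and sample for the diploid genome, with BL6-SNP and cast-SNP fragments beside them. The deposited expected counts were rounded to whole numbers for tests. TPM was computed from GENCODE M21 transcript lengths. Levels were tested with edgeR 4.0.16 (R 4.3.3, quasi-likelihood, TMM factors, genes above 1 TPM in at least 1 sample), and alleles with sample blocks and autosomal allele totals as library sizes (mean of at least 20 SNP fragments). P-values were adjusted by Benjamini-Hochberg over all genes tested. Calls needed a false discovery rate under 0.05 with at least 1.5-fold difference (2-fold for the parental and strain effects). DESeq2 1.42.0, other filters and scalings, and fits leaving out each sample were alternatives. Shares are raw. Intervals cover counting error only. The labels do not say whether replicates were separate cultures. They differed beyond sampling noise and were closest in male CB wt (median chi-square 0.7 against 0.455 from sampling alone). The genes, lists and classes were chosen with earlier results of these data known. All 44 genes are described by domain. More detail is given for most of those whose class differed in a clone or between wt lines, those of a single-parent class, and those called by a test. The models were tested on simulated data.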

Additional observations from a re-analysis of the deposited data

Results flagged for a closer look

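For 7 genes every BC clone differed from wt in level in one direction and every CB clone in the other, against percent_called of 9.22% over all genes for such opposite changes. The difference between the crosses, as the log2 effect in CB minus that in BC, was -0.87 for Mkrn3, -2.29 for Grb10, -0.47 for Copg2, -0.89 for Herc3, -0.35 for Blcap, -0.66 for Trappc9 and 0.49 for Inpp5f. None passed edgeR's test of the difference itself (adjusted p = 0.0941 for Herc3 to 0.301 for Blcap), while DESeq2 called Herc3 (adjusted p = 0.000107), Trappc9 (0.0172) and Mkrn3 (0.0252). The maternal share of Impact was lower in every BC clone and higher in every CB clone, a difference of 2.21 (SE 0.30) on the log2 scale with an edgeR adjusted p of 0.184, against percent_called of 2.59% over all genes for opposite shares. Cross, line and strain cannot be told apart.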

How the results depend on the processing

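No class switched parent under adjusted shares, other minimums or other bounds. Relaxed classes fell from 11 to 4 at bounds of 5, 20, 80 and 95%. DESeq2 gave 3 called genes for level in CB, and 1 each for allelic balance in BC, CB and both crosses, where edgeR gave 0. Leaving out each sample in turn gave 0 to 9 genes for level in CB (9 without ΔP2.1) and 0 to 4 for allelic balance in BC (1 without ΔE1, 4 without ΔP4). Adding the female samples cut the parental calls from 13 to 1 (Sgce). With a replicate block for the female against male comparison the counts were 19 for level and 23 for alleles, as without it. Same-numbered deviations correlated at 0.237 between those groups, 0.0982 between the male wt groups and 0.0182 between male CB and female wt, and the number alone was taken to pair nothing. No called direction reversed under any alternative. Of the 10 genes that never reached 20 SNP fragments, 3 had none at all, and a share on 20 to 100 fragments has a wide interval.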
